A study of Caenorhabditis elegans with 12 samples.

Results

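The comparison described here set Caenorhabditis elegans larvae of the strain lin-52(n771) against larvae of the wild-type strain N2, both irradiated with UV-B and collected 6 h later. It took 6 of the 12 RNA-seq libraries of the series, 3 per strain, and every gene in the table of expression values. Of 46245 gene identifiers, 12913 were annotated as protein-coding and had a mean of at least 1 FPKM (fragments scaled to transcript length and to library depth), and these were tested. Larvae of both strains were synchronised at the L1 stage, the earliest larval stage, fed E. coli for 3 h and given 60 mJ/cm2 of UV-B. The N2 libraries carry the label numbers 1, 2 and 3 and the lin-52 libraries 2, 3 and 4, and are called N2 UV 1 to 3 and lin-52 UV 2 to 4 below. The other 6 libraries came from mock-treated larvae, 3 of each strain, which were handled alike without UV; they are used to show which strain differences were also present without irradiation. The mutant is 1 allele in 1 strain, so other genetic differences between lin-52(n771) and N2 cannot be told apart from the allele itself. RNA was taken from pooled whole larvae after removal of ribosomal RNA, so that fewer cells of a type and less RNA per cell cannot be told apart in any of the values.

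LIN-52 is a subunit of MuvB, the core of the DREAM complex, which binds promoters through the E2F partner proteins EFL-1 and DPL-1 and the retinoblastoma-like pocket protein LIN-35. DREAM is known as a transcriptional repressor of cell-cycle genes and, in the worm soma, of genes that are normally used in the germ line, and its C. elegans subunits belong to the synMuv B class of vulval development genes. UV-B makes bulky lesions in DNA that block RNA and DNA polymerases and are removed by nucleotide excision repair (NER), in which CSB-1 and CSA-1 act at stalled RNA polymerase. The question the comparison addresses is how gene expression differs between lin-52 mutant and wild-type larvae while they respond to UV damage.

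FPKM are already scaled to library depth, so they cannot show whether libraries were sequenced to the same depth. The 6 irradiated libraries were alike in the following measures of their FPKM values. They held between 12782 and 12973 genes at 1 FPKM or more, FPKM sums of 1243600 to 1353800, 11.6% to 13.9% of the sum in ribosomal RNA genes and 0.708% to 0.763% in the mitochondrial genome, and their scaling factors ran from 0.999 to 1.05. In a principal component analysis of all 12 libraries the first component, with 70.3% of the variance, separated irradiated from mock-treated libraries, and the irradiated lin-52 libraries lay between the irradiated N2 libraries and the mock-treated ones. The N2 UV libraries scored -55.6, -59.3 and -58.1 on it, the lin-52 UV libraries -46.1, -38.3 and -36.2, and the 6 mock-treated libraries 45.3 to 51.0. Among the mutant libraries lin-52 UV 2 was thus the nearest to N2, and counts without it are given where they differ. The median absolute log2 difference between 2 libraries was 0.089 to 0.10 within N2 UV, 0.082 to 0.124 within lin-52 UV and 0.147 to 0.209 between the strains. Markers of sperm and of embryos that the sample could have held were low in all 6 libraries, with summed levels of 11.6 to 18.5 FPKM over 46 sperm genes and 14.2 to 16.6 FPKM over 18 embryo genes, against 613.6 to 746.5 FPKM for 47 germline genes and 4412 to 5089 FPKM for 23 body wall muscle genes.

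The transcript of the mutated gene was the starting check. The level of lin-52, on chromosome III from 9824083 to 9824750, was 35.8, 34.8 and 32.9 scaled FPKM in the N2 UV libraries and 10.5, 11.1 and 11.7 in the lin-52 UV libraries. All 3 mutant libraries lay below all 3 of N2, and the transcript was 3.01-fold lower (log2 fold change -1.59 ± 0.09 SE, limma adjusted p = 5.56e-07), as it also was without UV (-1.66 ± 0.09). Here and below, levels are FPKM divided by a scaling factor of each library, fold changes were computed after adding 0.5 FPKM and taking log2, and a gene is called where limma's Benjamini-Hochberg adjusted p was under 0.05.

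After UV the strains differed in 3637 of the 12913 genes, of which 1673 (13% of those tested) were higher and 1964 (15.2%) lower in lin-52 larvae. Most of these differences were small. The median fold was 1.28 among the higher and 1.23 among the lower genes, 352 higher and 238 lower genes reached 1.5-fold, 129 and 57 reached 2-fold, and 35 and 12 reached 4-fold. The 2 irradiated groups did not overlap in 1607 of the higher and 1927 of the lower genes, and in 42.2% of all tested genes. The balance of the calls depended on how libraries were scaled, with 46.0% of calls higher in the mutant under median-ratio scaling, 59.3% (2110 higher and 1449 lower) with FPKM as deposited, 64.1% (2248 and 1257) when every library was set to the same total and 53.8% (1983 and 1702) after quantile normalization, while the median log2 difference of all genes stayed between -0.02 and 0.03. Without lin-52 UV 2 the number of genes lower by at least 1.5-fold was 371.

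Of the 8 DREAM subunit genes tested, 6 were higher and lin-52 alone was lower in irradiated mutant larvae, with a median log2 difference of 0.65 against -0.02 over all genes. The largest increase was that of dpl-1, which encodes the DP partner of E2F, at 13.5, 12.8 and 14.97 FPKM in N2 UV and 27.3, 27.3 and 29.4 in lin-52 UV (1.00 ± 0.07). The MuvB gene lin-9 rose from 15.9 ± 0.56 to 30.0 ± 1.6 FPKM (SD, n = 3 per strain; 0.89 ± 0.05). The pocket protein gene lin-35 was higher by 0.68 ± 0.06, the E2F gene efl-1 by 0.68 ± 0.05 and lin-53, which encodes a histone-binding subunit, by 0.63 ± 0.05, each with all 3 mutant libraries above all 3 of N2. For lin-53 the strain difference was larger after UV than without it (difference of the effects 0.38 ± 0.07, adjusted p = 0.00794), and the gene stood at 131 ± 1.6 FPKM in mock-treated N2 and at 67.0 ± 3.3 in irradiated N2. The DNA-binding subunit gene lin-54 was higher by 0.22 ± 0.07 (adjusted p = 0.0272), a call that was lost in some alternatives, and lin-37 stood at 29.5 ± 1.7 FPKM in N2 UV and 26.2 ± 1.4 in lin-52 UV, which did not pass the test (adjusted p = 0.118). Other synMuv B and chromatin regulators counted 8 higher and 2 lower of 24, against 13% higher and 15.2% lower among all genes.

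The largest increases in irradiated mutants included 3 genes with known germline roles, pid-2, syp-1 and hrde-1. The level of pid-2, on chromosome I from 93022 to 94884, which encodes a factor of piRNA-directed silencing, was 8.17, 7.38 and 7.63 FPKM in N2 UV and 88.4, 96.0 and 91.3 in lin-52 UV. No library of either strain came near the other group, and the difference was 11.2-fold (3.49 ± 0.07, adjusted p = 1.16e-10). The level of syp-1, on chromosome V from 16404274 to 16407701, which encodes a central component of the meiotic synaptonemal complex, was 2.73, 3.15 and 3.27 FPKM in N2 UV and 28.5, 26.8 and 27.6 in lin-52 UV (2.99 ± 0.09). The nuclear Argonaute gene hrde-1, on chromosome III from 4172337 to 4176159, known for inherited RNA silencing, stood at 12.5, 12.8 and 12.9 FPKM in N2 UV and at 75.2, 89.7 and 84.2 in lin-52 UV (2.65 ± 0.06). In all 3 genes every mutant library lay above every N2 library, by far more than the libraries of a strain differed among themselves. A cluster of neighbouring genes on chromosome III between 13499199 and 13505536 rose together, T28A8.6 by 2.76 ± 0.09, T28A8.5 by 3.00 ± 0.11 and T28A8.4 by 2.79 ± 0.12. The remaining large increases were gpd-4, a glyceraldehyde-3-phosphate dehydrogenase gene that rose from 6.79 ± 0.61 to 44.1 ± 1.7 FPKM, gyg-2, a glycogenin gene that rose from 1.54 ± 0.27 to 11.6 ± 0.72, and C29A12.1 and CD4.8, higher by 2.81 ± 0.20 and 2.54 ± 0.12. Reads of gpd-4 may be shared with its near-identical paralogs, which makes its values less certain.

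**Figure D1:**
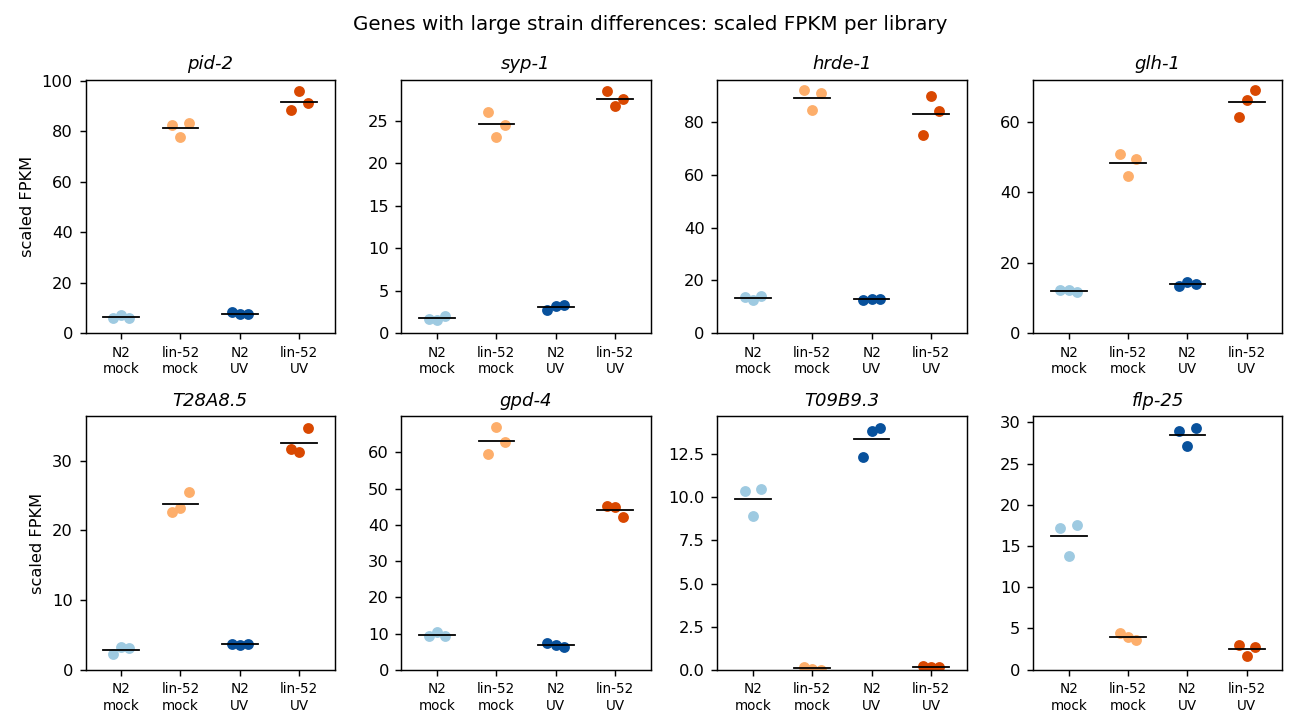
Levels in scaled FPKM (y axis, linear, starting at 0) of 8 genes with large strain differences in each of the 12 libraries, by group on the x axis; points are libraries and lines are group means. In irradiated larvae pid-2, syp-1, hrde-1, glh-1, T28A8.5 and gpd-4 are at least 4.6-fold higher in lin-52 and T09B9.3 and flp-25 at least 9.89-fold lower, with no overlap between strains, and the mock-treated groups differ in the same direction.

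A pair of short genes among the 12 largest increases were uneven between replicates. C04C3.4 had the largest fitted difference, 5.08 ± 1.06, but was listed at 0 in N2 UV 1 and 2 and at 3.59 FPKM in N2 UV 3, against 23.1, 33.7 and 48.0 in lin-52 UV. T24A6.1 was at 10.1, 1.33 and 10.2 FPKM in N2 UV and at 26.9, 38.9 and 37.6 in lin-52 UV (2.54 ± 0.57, adjusted p = 0.00697). Neither was called without UV.

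Beyond the largest increases, the germline lists held a minority of higher members. Of 38 tested germline and P granule genes 8 were higher and 2 lower, of 37 meiotic chromosome genes 5 were higher and 1 lower, and of 39 Argonaute and small RNA genes 9 were higher and 2 lower, with medians of -0.02, -0.00 and 0.04. Among all genes 13% were higher, so the meiotic share was close to the background, and without UV the 3 lists had 5, 5 and 10 higher members. The median member of each list therefore lay near the median of all genes, and single members stood far above it. The level of glh-1, which encodes a Vasa-like P granule helicase, was 13.3, 14.4 and 13.9 FPKM in N2 UV and 61.4, 66.4 and 69.2 in lin-52 UV (2.20 ± 0.06). The P granule gene pgl-3 rose from 3.87 ± 0.51 to 21.8 ± 0.78 FPKM and rnp-8, an RNA-binding partner of the germline poly(A) polymerase GLD-2, from 1.5 ± 0.16 to 10.2 ± 0.46. Among meiotic genes, the chromosome axis genes htp-1 and him-3 were higher by 2.18 ± 0.13 and 0.98 ± 0.20. The meiotic gene him-19 stood at 2.03, 3.31 and 2.70 FPKM in N2 UV and 8.16, 6.70 and 11.4 in lin-52 UV, and its strain difference was larger after UV than without it (1.17 ± 0.32, adjusted p = 0.0386). Among small RNA genes mut-2, a nucleotidyltransferase gene, drh-3, a helicase gene, and sid-1, which encodes a double-stranded RNA channel, were higher by 0.84 ± 0.08, 0.50 ± 0.05 and 0.55 ± 0.08. The summed level of all 47 listed germline genes was 613.6 to 658.9 FPKM in N2 UV and 716.0 to 746.5 in lin-52 UV.

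Larger decreases were fewer. T09B9.3, on the X chromosome from 9759297 to 9761366, stood at 12.3, 13.9 and 14 FPKM in N2 UV and at 0.238, 0.130 and 0.142 in lin-52 UV, which was 20.8-fold lower and the largest of the 12 leading decreases (-4.38 ± 0.13). The gene flp-25, on chromosome III, which encodes FMRFamide-like neuropeptides, was at 28.9, 27.2 and 29.3 FPKM in N2 UV and at 3.01, 1.72 and 2.73 in lin-52 UV (-3.31 ± 0.15). The next was C39D10.2, on X, which fell from 29.1 ± 1.6 to 3.18 ± 0.39 FPKM. Each of these 3 was also lower without UV, and for flp-25 the decrease was larger after UV (difference of the effects -1.42 ± 0.22, adjusted p = 0.00407). A further 4 genes, srlf-33, F15A4.5, xbx-9 and F13E9.15, were lower by between 1.54 and 1.73 on the log2 scale and were lower by between 1.39 and 2.51 without UV. A few decreases belonged to genes that were at or near 0 without irradiation. The antimicrobial peptide gene cnc-11 was listed at 0 in all 6 mock-treated libraries and stood at 10.8, 18.6 and 10.2 FPKM in N2 UV and 2.98, 5.95 and 1.81 in lin-52 UV (-1.82 ± 0.32). B0563.10, also listed at 0 in all mock-treated libraries, was at 9.65, 9.56 and 8.42 FPKM in N2 UV and 3.79, 2.30 and 1.59 in lin-52 UV. The chitinase gene cht-1 was at 48.0, 50.6 and 48.5 FPKM in N2 UV and 26.2, 12.1 and 13.1 in lin-52 UV, against 0.846 ± 0.14 and 1.02 ± 0.56 in the mock-treated strains. In each of these 3 genes the irradiated mutant libraries lay below all N2 libraries, and for cht-1 the library lin-52 UV 2 was the nearest to N2. T01C3.11 was called at -1.53 ± 0.53 (adjusted p = 0.0495), with N2 UV 1 at 4.09 FPKM close to lin-52 UV 4 at 3.84. Several of the named genes overlap another gene in the annotation (pid-2, lin-52, dpl-1, lin-35, T09B9.3, C39D10.2, cht-1 and T01C3.11 on the opposite strand, syp-1 on the same strand), and because strand use in the counting is not given in the sources used here, reads of the overlapping parts cannot be assigned.

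Many genes of the cell division machinery were higher. Of 81 tested cell cycle and mitosis genes 46 were higher and 4 lower (median 0.23), and of 41 DNA replication genes 25 were higher and 1 lower (median 0.24), against 13% higher and 15.2% lower among all genes. Without UV the cell cycle list had 37 members higher and 1 lower (median 0.22), and the replication list 12 higher and none lower (median 0.15). The difference between the strain effects was positive in 5 and negative in 3 cell cycle members, and positive in 3 and negative in 1 of the replication genes. Over all genes that difference was positive in 5.44% and negative in 6.2%. Its median was -0.04 in the cell cycle list and 0.07 in the replication list, so these lists as a whole did not differ much more after UV. The kinetochore gene kbp-3 was at 21.3, 22.2 and 22.3 FPKM in N2 UV and 45.7, 58.7 and 50.5 in lin-52 UV (1.21 ± 0.09). The centriole gene sas-6 rose from 7.92 ± 0.73 to 17.1 ± 1.1 FPKM and the separase gene sep-1, which releases sister chromatids, from 8.62 ± 0.18 to 15.7 ± 0.79. For top-2, which encodes DNA topoisomerase II, the level was 52.5, 49.2 and 50.7 FPKM in N2 UV and 102.0, 108.4 and 109.6 in lin-52 UV (1.06 ± 0.04). In the mock-treated larvae the same gene differed by 0.42 ± 0.04, and the difference between the effects was 0.64 ± 0.06 (adjusted p = 0.0002). The condensin gene smc-4 and the spindle gene tpxl-1 also differed more after UV, with irradiated effects of 0.80 ± 0.04 and 0.74 ± 0.09 and mock effects of 0.36 ± 0.04 and 0.15 ± 0.09. Among replication genes, the initiation factor gene sld-2, the DNA ligase gene lig-1 and the origin recognition gene orc-5 were higher by 0.85 ± 0.10, 0.80 ± 0.05 and 0.69 ± 0.10. The thymidylate synthase gene tyms-1 was the member that fell, from 28.1 ± 0.52 to 18.1 ± 1.9 FPKM (-0.63 ± 0.07).

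**Figure D2:**
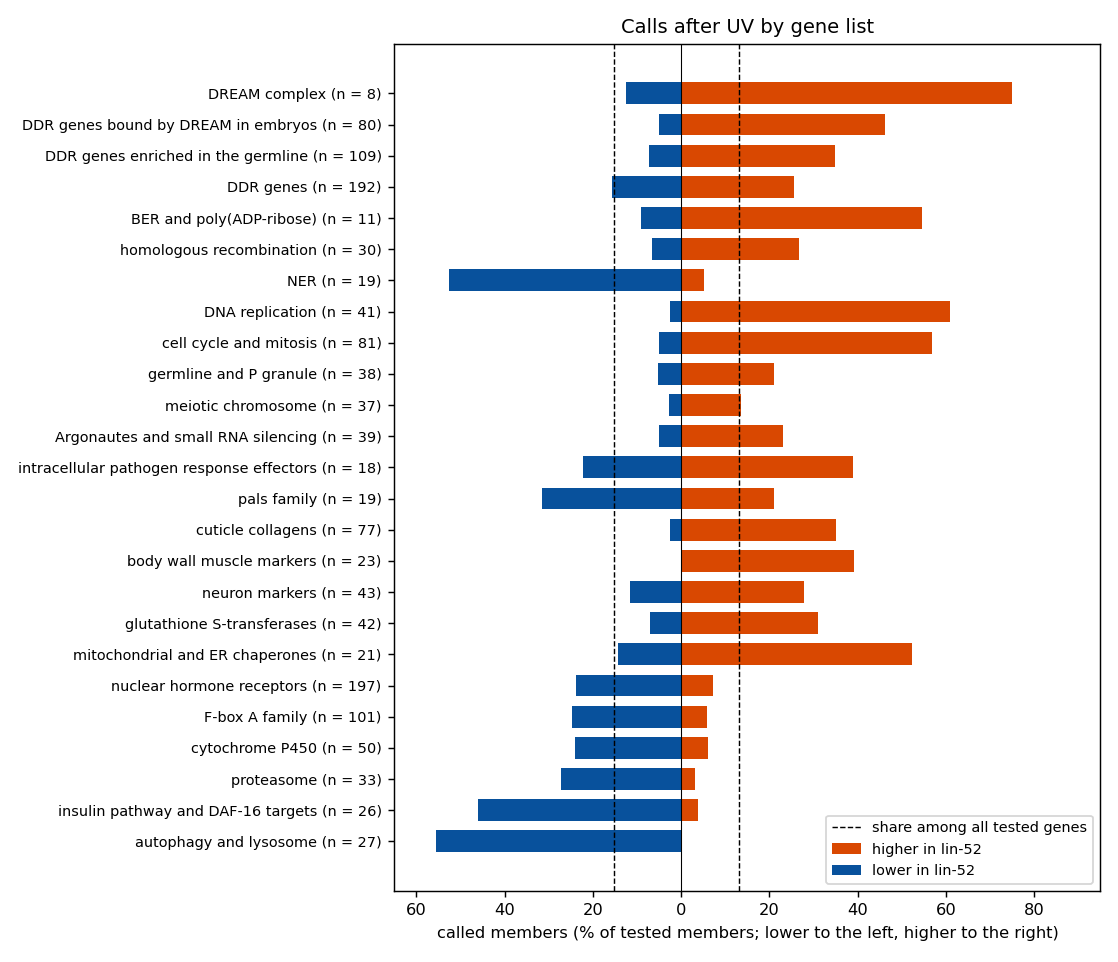
Share of the tested members of 25 gene lists that were called higher (bars to the right) or lower (bars to the left) in irradiated lin-52 larvae, in percent, with the number of tested members beside each name; dashed lines give the shares among all 12913 tested genes, 13% higher and 15.2% lower. DREAM, replication and cell cycle genes have the longer bar on the right. NER genes, autophagy genes and the joint list of insulin pathway genes and DAF-16 targets have it on the left.

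DNA damage response (DDR) genes split by whether DREAM was reported to bind them in embryos, for most of them in the promoter. Of the 192 tested genes of the study's DDR list 49 (25.5%) were higher and 30 (15.6%) lower, with a median of 0.02. Among all genes 13% were higher and 15.2% lower. Among the 80 bound by DREAM 37 were higher and 4 lower (median 0.15), and among the 112 without that mark 12 were higher and 26 lower (median -0.04). Among 109 members with germline-enriched expression 38 were higher and 8 lower, and among the 61 neither bound nor germline-enriched 4 were higher and 20 lower (median -0.10). In the mock-treated larvae the bound members counted 36 higher and none lower, and the others 9 higher and 1 lower. The difference between the strain effects after and without UV was called positive in 6 members of the whole list and negative in 14. Over all genes that difference was positive in 5.44% and negative in 6.2%. The lower germline-enriched members numbered 5 without N2 UV 2. The list is the study's own and was discussed there for the same 2 strains, so its direction is not independent evidence.

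Base excision repair and poly(ADP-ribose) genes showed the highest median of the repair groups, 0.45, with 6 of 11 higher and 1 lower. Among all genes 13% were higher and 15.2% lower. The AP endonuclease gene exo-3 was at 11.8, 12.6 and 10.6 FPKM in N2 UV and 25.1, 29.4 and 25.0 in lin-52 UV (1.15 ± 0.08). The gene parp-1, for poly(ADP-ribose) polymerase, rose from 10.7 ± 1.6 to 23.4 ± 0.46 FPKM, the flap endonuclease gene crn-1 from 23.2 ± 0.83 to 35.9 ± 1.4 and the uracil-DNA glycosylase gene ung-1 from 5.96 ± 0.53 to 9.22 ± 1.4. Translesion polymerases, which copy damaged templates, went both ways. The gene polh-1 for polymerase eta, known for bypass of UV lesions, was at 6.02, 6.64 and 7.43 FPKM in N2 UV and 16.8, 17.6 and 15.7 in lin-52 UV (1.26 ± 0.09). Its relative polk-1 was higher by 0.76 ± 0.08, and rev-1 was lower by 0.26 ± 0.06 (19.6 ± 0.39 against 16.2 ± 0.42 FPKM).

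Of 30 homologous recombination genes 8 were higher and 2 lower (median 0.03), of 11 mismatch and crosslink repair genes 5 were higher and none lower, and of 16 damage checkpoint genes 5 were higher and 2 lower. Among all genes 13% were higher and 15.2% lower. The higher mismatch and crosslink repair genes numbered 3 with the replicate block. The recombination gene sws-1 was higher by 1.38 ± 0.18, the SMC5/6 complex gene smc-5 rose from 24.3 ± 1.1 to 44.4 ± 1.0 FPKM and the nuclease-helicase gene dna-2 from 7.29 ± 0.32 to 12.1 ± 0.75. The mismatch recognition genes msh-2 and msh-6 were higher by 0.37 ± 0.06 and 0.35 ± 0.05. In the checkpoint group mus-101, the TopBP1 gene, was at 12.9, 13.5 and 12.6 FPKM in N2 UV and 26.8, 27.5 and 28.6 in lin-52 UV (1.06 ± 0.05). The replication fork protection gene tipn-1 was higher by 1.15 ± 0.10 and hsr-9, related to 53BP1, by 0.36 ± 0.04. The HMG protein gene hmg-12, also on the DDR list, rose from 39.1 ± 1.4 to 99.5 ± 5.5 FPKM, by more than without UV (1.34 ± 0.06 against 0.84 ± 0.06; difference 0.50 ± 0.08, adjusted p = 0.00547). The MRN complex gene rad-50 showed the opposite, with 49.7 ± 1.3 FPKM in N2 UV and 51.7 ± 1.4 in lin-52 UV (0.06 ± 0.04, adjusted p = 0.365) and 15 ± 0.48 against 22.9 ± 0.87 in the mock-treated strains (0.59 ± 0.04). The strain effect on rad-50 was smaller after UV by 0.54 ± 0.06.

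NER genes went the other way. Of 19 tested members 10 were lower and 1 higher after UV, with a median of -0.17, against 2 higher and none lower without UV, and in 6 members the strain effect after UV was called more negative than without it. The level of uvs-1, the worm counterpart of UVSSA, which acts with CSB-1 at stalled polymerases, was 37.7, 37.7 and 37.6 FPKM in N2 UV and 25.0, 21.7 and 22.5 in lin-52 UV (-0.70 ± 0.06). The mock-treated strains were at 7.45 ± 0.16 and 7.94 ± 0.31, so the irradiated level was above the mock level in both strains, and less so in the mutant (difference of the effects -0.78 ± 0.08, adjusted p = 0.000415). The level of csb-1 was 19.4, 22.5 and 21.9 FPKM in N2 UV and 13.9, 13.6 and 13.2 in lin-52 UV (-0.63 ± 0.09), against 4.30 ± 0.34 and 4.83 ± 0.59 in the mock-treated strains. The cyclin H gene cyh-1, a subunit of the kinase module of TFIIH, fell from 58.8 ± 1.8 to 40.5 ± 0.48 FPKM, and rad-23, a damage recognition gene, from 119 ± 4.5 to 94.3 ± 1.6. The other 6 lower members, named here to complete the count, were the TFIIH genes xpb-1, gtf-2H1, gtf-2H3, cdk-7 and mnat-1 and the damage-binding gene ddb-1, each lower by less than cyh-1 and rad-23. The member that rose was csa-1, from 4.35 ± 0.28 to 7.32 ± 0.29 FPKM (0.69 ± 0.13), which was also higher without UV (0.81 ± 0.13). The checkpoint kinase gene atl-1, the worm ATR, had the same pattern as uvs-1, with 88.2, 98.9 and 98.5 FPKM in N2 UV, 69.9, 69.0 and 70.9 in lin-52 UV (-0.44 ± 0.06) and 20.7 ± 0.70 and 21 ± 1.4 in the mock-treated strains. Of 14 p53 and damage-induced apoptosis genes 3 were lower and none higher, with a median of 0.01. Their lower share was 21.4%, against 52.6% in the NER list and 15.2% among all genes.

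**Figure D3:**
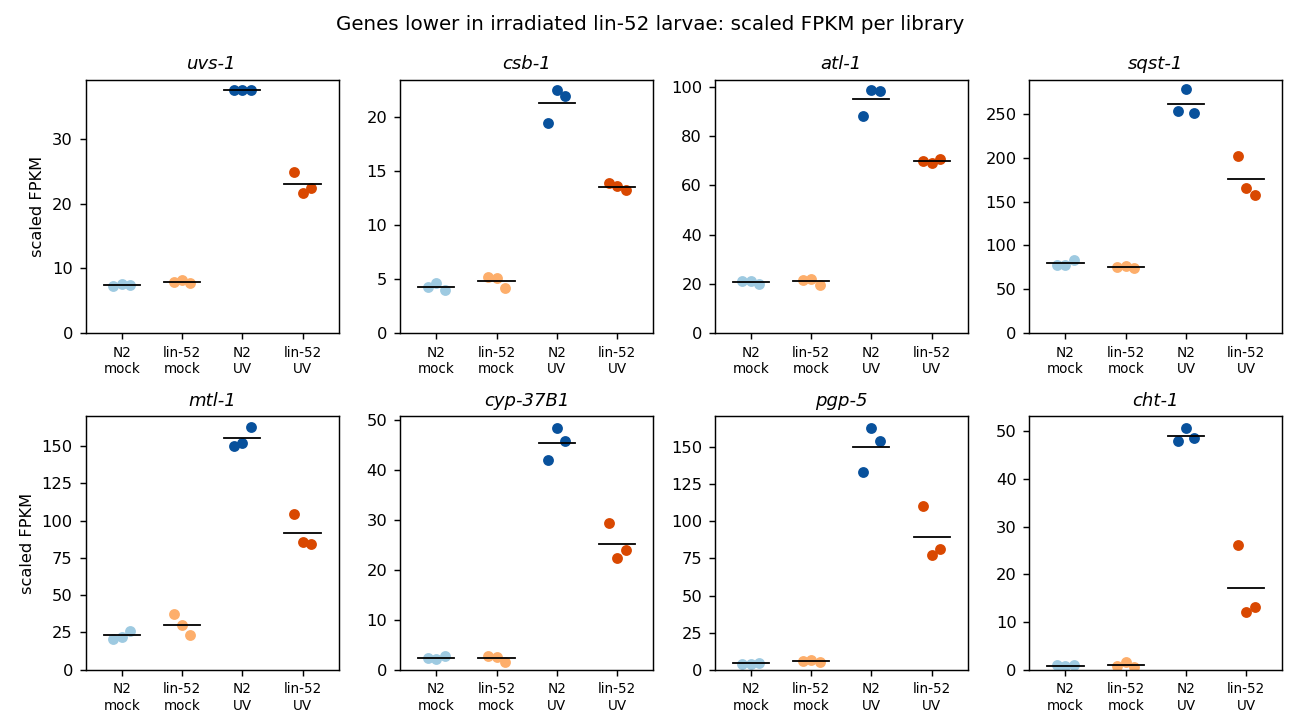
Levels in scaled FPKM (y axis, linear, starting at 0) of 8 genes that were lower in irradiated lin-52 larvae, in each of the 12 libraries, by group on the x axis; points are libraries and lines are group means. For uvs-1, csb-1, atl-1, sqst-1, mtl-1, cyp-37B1, pgp-5 and cht-1 the N2 UV libraries are the highest, the lin-52 UV libraries lie below them and above the mock-treated libraries of both strains.

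Lower calls were also frequent among genes of autophagy and of stress resistance. Of 27 tested autophagy and lysosome genes 15 were lower and none higher (median -0.17), and of 26 genes of the insulin pathway and targets of its transcription factor DAF-16 12 were lower and 1 higher (median -0.21; 6 lower when libraries had equal sums). The strain effect after UV was called more negative than without UV in 5 of the autophagy genes and in 6 of the DAF-16 group. The level of sqst-1, the worm p62, an adaptor that carries cargo to autophagosomes, was 253.8, 278.9 and 251.5 FPKM in N2 UV and 202.4, 165.9 and 157.9 in lin-52 UV (-0.58 ± 0.08), against 79.5 ± 3.1 and 75.5 ± 1.1 in the mock-treated strains. The library lin-52 UV 2 was again the highest of the mutant group. The ubiquitin-like Atg8 genes lgg-1 and lgg-2 fell from 940 ± 26.2 to 728 ± 72.6 FPKM and from 229 ± 6.5 to 161 ± 26.9, the phosphoinositide-binding gene atg-18 from 88.0 ± 1.3 to 66.2 ± 9.7 and the Beclin gene bec-1 from 65.3 ± 3.1 to 49.9 ± 1.0. Among DAF-16 targets the metallothionein gene mtl-1 was at 150.3, 152.5 and 162.9 FPKM in N2 UV and 104.3, 85.4 and 84.6 in lin-52 UV (-0.77 ± 0.14). The transhydrogenase gene nnt-1 was lower by 0.72 ± 0.13. The kinase gene akt-2, on the list as a member of the insulin pathway and not as a target, was lower by 0.37 ± 0.05. Of 33 proteasome genes 9 were lower and 1 higher, and 4 were lower when libraries had equal sums. The lower share was 55.6% in the autophagy list, 46.2% in the insulin and DAF-16 list and 27.3% in the proteasome list. Among all genes it was 15.2%, with 24.5% at 20 to 100 FPKM and 28.1% above 100 FPKM. The proteasome share was thus near that of highly expressed genes.

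Several families of regulators, defence genes and detoxifying enzymes held more lower than higher calls. So did all tested genes under this scaling, with 15.2% lower and 13% higher. In the families named next the lower share was 22.7% to 24.8%. Of 197 nuclear hormone receptor genes 47 were lower and 14 higher (median -0.12), of 101 genes of the F-box A family 25 were lower and 6 higher (median -0.19), of 50 cytochrome P450 genes 12 were lower and 3 higher (median 0.01), and of 44 innate immunity effector genes 10 were lower and 5 higher. Other detoxifying families did not, since 14 of 58 UDP-glucuronosyltransferase genes were higher and 11 lower (median 0.06), and 13 of 42 glutathione S-transferase genes were higher and 3 lower (median 0.22). The P450 gene cyp-37B1 was at 42.1, 48.4 and 45.8 FPKM in N2 UV and 29.4, 22.4 and 24.01 in lin-52 UV (-0.84 ± 0.16), against 2.38 ± 0.29 and 2.36 ± 0.63 in the mock-treated strains. The P-glycoprotein gene pgp-5, a drug exporter, fell from 150 ± 15.1 to 89.7 ± 17.8 FPKM and ugt-18 from 23.9 ± 1.9 to 12.9 ± 3.9. The infection response genes irg-1 and irg-5 fell from 39.4 ± 0.91 to 22.2 ± 4.8 and from 339 ± 23.1 to 236 ± 15.7 FPKM, of which irg-1 was among the calls lost in some alternatives. The F-box gene fbxa-105 fell from 33.0 ± 3.4 to 18.3 ± 1.4 FPKM, and nhr-277 was a receptor gene that rose, from 5.41 ± 0.77 to 10.2 ± 0.47. Heat shock protein genes did not hold more lower calls, with 7 of 23 higher and 3 lower (median 0.02). The higher ones numbered 4 without N2 UV 3, lin-52 UV 3 or lin-52 UV 4. The member with the largest decrease, the small heat shock gene hsp-12.3, stood at 2.80, 2.99 and 5.33 FPKM in N2 UV and 1.21, 1.33 and 0.62 in lin-52 UV (-1.42 ± 0.28). Counts on several of these lists changed when single libraries were left out. The lower nuclear hormone receptor genes numbered 31 without N2 UV 2, 29 without N2 UV 3 and 26 without lin-52 UV 3 or lin-52 UV 4 (27 with FPKM as deposited and 25 with equal sums), the lower F-box A genes 16 without N2 UV 1, 14 without N2 UV 2 or lin-52 UV 3 and 13 without lin-52 UV 4, and the lower immunity genes 5 without N2 UV 2. The higher UDP-glucuronosyltransferase genes numbered 9 without N2 UV 1, 2 or 3, 7 without lin-52 UV 3 and 6 without lin-52 UV 4.

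A small set of genes, several of them known from the transcriptional response to intracellular pathogens, differed between the strains in mock-treated larvae and differed less after UV. B0507.8, on chromosome V from 8760622 to 8762961, was at 5.85, 6.58 and 5.81 FPKM in N2 UV and 32.5, 36.7 and 35.0 in lin-52 UV (2.42 ± 0.07). Without UV it stood at 0.730 ± 0.050 in N2 and 56.4 ± 3.7 in lin-52 (5.53 ± 0.07), so that the difference of the effects was -3.11 ± 0.10 (adjusted p = 5.14e-08). Its neighbour ddn-1, from 8758820 to 8760516, followed the same course with effects of 2.05 ± 0.17 after UV and 5.43 ± 0.17 without. F09C6.13, listed at 0 in all 3 mock-treated N2 libraries, was at 11.4, 9.20 and 15.5 FPKM in N2 UV and 46.1, 42.9 and 30.5 in lin-52 UV, and C53A5.9 rose from 0.757 ± 0.079 to 8.77 ± 0.59. In N2 these 4 genes stood higher in irradiated than in mock-treated larvae, while in the mutant the irradiated mean was below the mock mean for all of them but F09C6.13. T20D4.7 was at 6.21 ± 0.68 FPKM in N2 UV and 8.44 ± 0.30 in lin-52 UV against 0.123 ± 0.11 and 7.90 ± 0.30 without UV. Of 18 pathogen response effectors 7 were higher and 4 lower after UV, against 12 higher and none lower without, and in 12 the difference of the effects was negative. Of 19 pals genes, a nematode family that includes regulators of this response, 4 were higher and 6 lower after UV and 7 were higher without it; pals-27 was higher by 1.85 ± 0.14, pals-38 by 1.81 ± 0.25, pals-33 by 1.34 ± 0.17 and pals-39 by 0.69 ± 0.12, and pals-14 fell by 0.81 ± 0.27. The lower pals genes numbered 3 without N2 UV 2, N2 UV 3, lin-52 UV 3 or lin-52 UV 4. With a filter at 5 FPKM 0 pals genes were higher, so the higher calls rest on genes of low level. The shares were 38.9% higher and 22.2% lower for the effectors, and 21.1% and 31.6% for the pals genes. Among all genes 13% were higher and 15.2% lower. T08E11.1, of the effector list, fell from 2.86 ± 0.14 to 1.39 ± 0.27 FPKM. Members of the pals and F-box families are similar in sequence, and their reads may have been divided between copies.

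Some of the structural genes of the larval body were called higher in the irradiated mutant, while the same lists held nearly no higher calls without UV. Of 77 cuticle collagen genes 27 were higher and 2 lower after UV (median 0.22), against 1 higher and 4 lower without (median -0.04), and the difference of the effects was positive in 22 and negative in 1. Of 23 body wall muscle markers 9 were higher and none lower (median 0.13), against none higher and 2 lower without UV, with a positive difference in 12. Of 43 neuron markers 12 were higher and 5 lower, against none higher and 1 lower without UV, with a positive difference in 12 and a negative one in 1. Over all genes 13% were higher and 15.2% lower after UV, and 3.59% and 1.74% without it. The difference of the effects was positive in 5.44% of all genes and negative in 6.2%. For unc-89, which encodes the giant sarcomere protein obscurin, the level was 87.6, 80.7 and 83.5 FPKM in N2 UV and 101.5, 99.5 and 103.2 in lin-52 UV (0.27 ± 0.03). The mock-treated strains stood at 147 ± 1.5 and 138 ± 2.7, so the gene was lower in irradiated than in mock-treated larvae of both strains, and less so in the mutant (difference of the effects 0.36 ± 0.05, adjusted p = 0.00198). The sarcomere genes unc-22, deb-1 and atn-1 had the same order of the 4 group means, with irradiated effects of 0.23 ± 0.03, 0.21 ± 0.04 and 0.21 ± 0.04. Among neuron markers, the tyrosine decarboxylase gene tdc-1 rose from 4.37 ± 0.35 to 6.60 ± 0.55 FPKM, the choline transporter gene cho-1 from 8.24 ± 0.26 to 11 ± 0.36 and the glutamate transporter gene eat-4 from 8.26 ± 0.81 to 10.4 ± 0.14, against mock levels between 15.1 and 21.8. The collagen genes col-111, col-89 and col-101 were higher by 1.01 ± 0.21, 0.93 ± 0.15 and 0.70 ± 0.11.

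The summed level of the muscle markers was 4412 to 4779 FPKM in N2 UV and 4750 to 5089 in lin-52 UV, against 6911 to 7121 and 6166 to 6664 in the mock-treated strains, and that of all 177 listed collagens 10170 to 11160 in N2 UV and 11420 to 12770 in lin-52 UV. For the neuron markers the sums were 1161 to 1166 and 1114 to 1189 FPKM and overlapped. The furrow collagens, whose transcripts peak within each moulting cycle, summed to 6.36 to 8.78 FPKM in N2 UV and 6.64 to 13.2 in lin-52 UV, and none of 6 was called. Of 9 heterochronic timing genes none was called either. Whether the share of these tissues or the developmental progress of the larvae contributed to the differences was not tested. The higher collagen genes numbered 16 without N2 UV 2, 17 without N2 UV 3, 15 without lin-52 UV 3 and 14 without lin-52 UV 4, and the higher muscle markers 5 without any of these libraries in turn and 14 or 15 under the other scalings. The lower neuron markers numbered 2 without N2 UV 2 or lin-52 UV 4 and 3 without N2 UV 3 or lin-52 UV 3.

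Folding genes were called higher in part, and metabolic lists were mixed. Of 21 mitochondrial and endoplasmic reticulum chaperone genes 11 were higher and 3 lower (median 0.13), but only 5 were higher without N2 UV 2 or lin-52 UV 3 and 3 without N2 UV 3 or lin-52 UV 4. The chaperone gene hsp-4, the worm BiP, was at 107.8, 93.2 and 90.7 FPKM in N2 UV and 123.0, 144.3 and 156.3 in lin-52 UV (0.53 ± 0.09), and hsp-60 rose from 199 ± 6.7 to 252 ± 18.6. Of 49 glycolysis and respiration genes 5 were higher and 6 lower (median -0.02), and of 26 fat metabolism and fasting genes 3 were higher and 7 lower (median -0.07). Among all genes 13% were higher and 15.2% lower, so the glycolysis and respiration shares, 10.2% and 12.2%, lay below the background. The lower fat metabolism genes numbered between 1 and 8 in the alternatives. The acyl-CoA dehydrogenase gene acdh-1 was at 42.5, 40.1 and 39.5 FPKM in N2 UV and 73.8, 79.5 and 102.4 in lin-52 UV (1.04 ± 0.10), far below its mock levels of 348 ± 20.5 and 455 ± 27.5. The lactate dehydrogenase gene ldh-1 was higher by 0.36 ± 0.05. Of 77 cytosolic ribosomal protein genes 1 was higher and 2 were lower, and none of the 12 genes of the mitochondrial genome was called.

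The strain comparison without UV called far fewer genes, 463 higher (3.59%) and 225 lower (1.74%), with the same number of libraries per group. Of the genes higher after UV 334 were also higher without it, which was 20% of the former and 72.1% of the latter list, and of the genes lower after UV 91 were also lower without it, 4.63% of the former and 40.4% of the latter. The difference between the strain effects was called in 1503 genes, positively in 702 (5.44%) and negatively in 801 (6.2%). Of the genes higher after UV 578 had a positive and 36 a negative difference, and of those lower after UV 687 had a negative and 3 a positive one. Both contrasts use the same irradiated libraries, so genes called after UV lean toward a difference of the same sign by selection. The split is therefore not a separate result. For the remaining 1059 higher and 1274 lower genes a difference between the effects was not detected, with a median standard error of 0.12 on the log2 scale. The largest positive differences, among genes of at least 5 FPKM whose irradiated groups did not overlap, were ZK353.10 (2.06 ± 0.49), haf-6 (1.53 ± 0.12), comt-2 (1.40 ± 0.36), F23D12.3 (1.35 ± 0.14) and C54C6.5 (1.19 ± 0.17). The level of haf-6, which encodes an ABC transporter, was 10.02, 9.45 and 9.48 FPKM in N2 UV and 4.52, 4.31 and 4.02 in lin-52 UV, against 27.1 ± 1.6 and 4 ± 0.50 without UV, so that the strains were nearer each other after irradiation, with N2 lower than without it. The number of genes with a called difference fell when any single library but lin-52 UV 2 was left out, and such fits also have fewer libraries. The lowest counts were 961 without N2 mock 1, 844 without N2 UV 2, 979 without N2 UV 3, 920 without lin-52 UV 3 and 833 without lin-52 UV 4. Without lin-52 UV 2 the number was 2184.

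**Figure D4:**
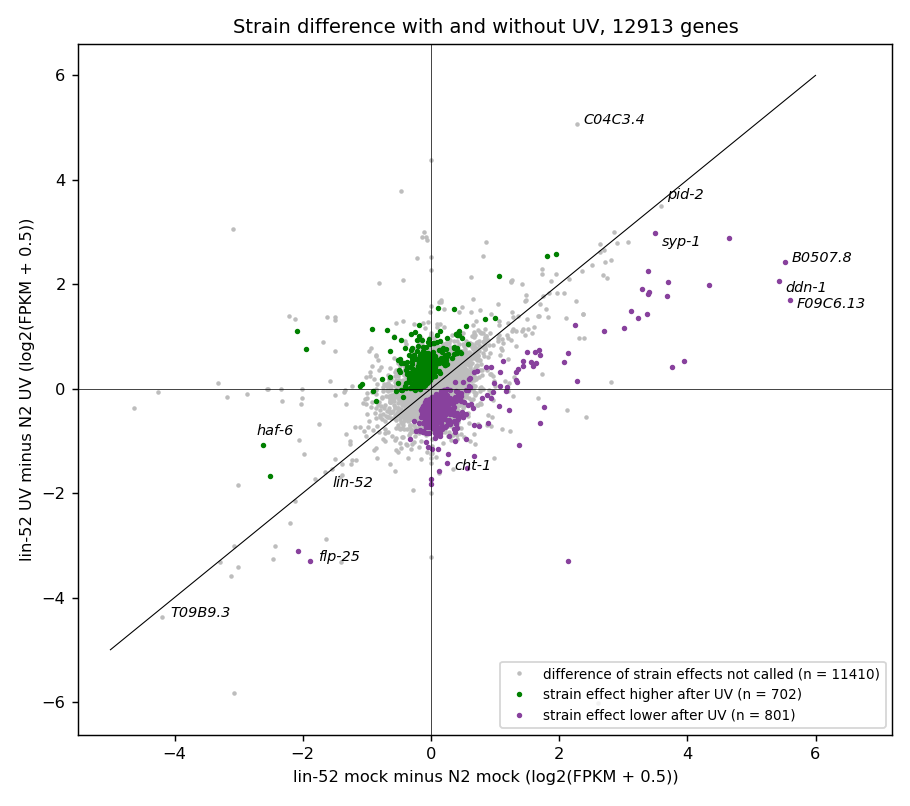
Strain difference (lin-52 minus N2, log2(FPKM + 0.5)) without UV on the x axis and after UV on the y axis for the 12913 tested genes; green points had a strain effect that was called higher after UV (702) and purple points one called lower (801), and the diagonal marks equal effects. Genes with large effects such as pid-2, T09B9.3 and lin-52 lie near the diagonal, B0507.8, ddn-1 and F09C6.13 lie below it, and most called differences lie near the centre.

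The share of genes higher in the irradiated mutant was larger among longer genes. The share called higher rose over the classes of gene span, from 10.1% of 1759 genes of up to 1 kb through 11.7%, 12.4%, 13.7% and 18.2% to 25.0% of 332 genes of over 16 kb, while the share called lower was largest between 2 and 4 kb, at 17.3%, and smallest over 16 kb, at 9.34%. Without UV the share higher was 3.47% in the shortest and 2.11% in the longest class. Across genes, which are not independent replicates, Spearman's rho between span and strain difference was 0.08 after UV and -0.01 without it. The share with a positive difference between the effects was 4.95% in the shortest and 16% in the longest class. Expression level moved with the calls too, since 9.75% of genes below 5 FPKM were higher and 3.35% lower, against 13.0% and 28.1% of genes above 100 FPKM. The chromosomes differed little, with 11.9% (X) to 13.8% (III) of genes higher and 14.1% (I) to 16.4% (III) lower.

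**Figure D5:**
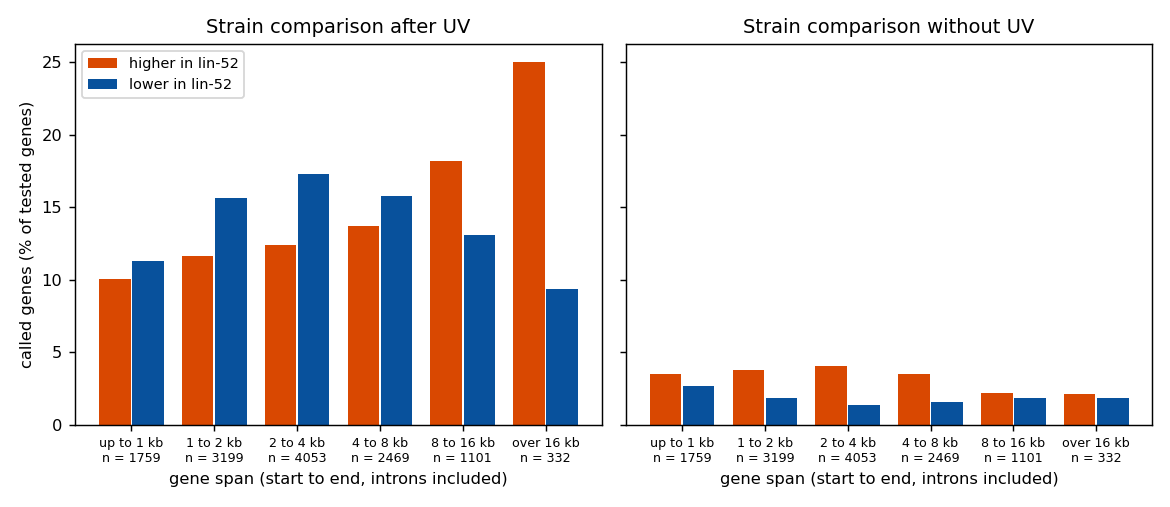
Share of tested genes called higher or lower in lin-52 (y axis, percent, starting at 0) in 6 classes of gene span (x axis, start to end with introns, number of genes below each class), after UV on the left and without UV on the right. After UV the share called higher rises from 10.1% in the shortest to 25.0% in the longest class, and without UV it falls from 3.47% to 2.11%.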

How the data were processed

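RNA-seq was performed on ribosomal RNA-depleted total RNA of L1 larvae in 4 groups of 3 libraries. The deposited table holds FPKM that the authors computed per gene, after mapping with TopHat in the QuickNGS workflow, with Cufflinks for abundance and an Ensembl annotation, and the tool list of the submission names DESeq2. The genome build and the use of strand in counting are not given in the sources used here. No read counts were used, so the depth behind each value is unknown and no counting intervals are given. An exact 0 may be a failed estimate and is reported as listed at 0.

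Of 46245 identifiers, 45990 matched the Ensembl release 115 annotation of WBcel235, from which symbols and positions were taken. FPKM of protein-coding genes were divided by median-ratio size factors. Genes averaging 1 FPKM or more across the 12 libraries were tested on log2(FPKM + 0.5) with limma 3.58.1 (trended empirical Bayes; R 4.3.3), 1 fit over the 4 groups, with contrasts for the strain difference after UV, without UV, and the difference between them. P-values were adjusted by Benjamini-Hochberg over all 12913 genes and called under 0.05. The procedure was tested on simulated data. The submitters call the samples biological triplicates, chosen from 4 RNA samples per group by RNA quality; whether they came from separate cultures is not stated, so p-values measure the spread between these samples.

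Named genes were the DREAM subunits, the 12 largest increases and 12 largest decreases among called genes of at least 5 FPKM without overlap between the UV groups, the 5 largest positive and 5 largest negative differences of the strain effects at the same level, and up to 5 called members of each of 57 lists, with up to 2 highly expressed members where a list was mostly uncalled. The rule gave 333 genes, of which the text names only a part. Exceptions, chosen after their values were seen, are 6 further NER genes and the genes of the closing observations. Of 1417 list entries 20 could not be matched. Members and lists were chosen with earlier results of these data known. Alternatives (25) varied the scaling, pseudocount, filter, gene set, variance model, libraries and replicate block. Promoter motifs and sequences were not analysed here.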

Additional observations from a re-analysis of the deposited data

Results flagged for a closer look

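The strain effect after UV differed from that without UV in 702 genes positively and in 801 negatively, by limma's interaction contrast with Benjamini-Hochberg adjustment. Among them were 61 of the genes followed in the text. The values below are the effect after UV minus the effect without UV on the log2(FPKM + 0.5) scale.

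Differences were positive, meaning a strain effect shifted upward after UV, for the DREAM genes lin-35 (0.29) and lin-53 (0.38) and for the large increases gyg-2 (0.63) and CD4.8 (0.74). The cell division and repair genes with a positive difference were smc-4 (0.44), tpxl-1 (0.59), top-2 (0.64), smc-5 (0.28), hmg-12 (0.50) and him-19 (1.17). Muscle genes gave 0.36 for unc-89, 0.36 for unc-22, 0.31 for deb-1 and 0.35 for atn-1, and neuron genes 0.61 for tdc-1, 0.41 for cho-1 and 0.39 for eat-4. Folding and metabolic genes gave 0.45 for hsp-4, 0.44 for hsp-60, 0.66 for acdh-1 and 0.44 for ldh-1, and nhr-277 gave 0.88. The largest positive differences at 5 FPKM or more without overlap of the irradiated groups were 2.06 for ZK353.10, 1.53 for haf-6, 1.40 for comt-2, 1.35 for F23D12.3 and 1.19 for C54C6.5, and F15A4.5 gave 0.84.

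Differences were negative for the repair and checkpoint genes uvs-1 (-0.78), csb-1 (-0.78), cyh-1 (-0.50), rad-23 (-0.32), atl-1 (-0.46) and rad-50 (-0.54), and for tyms-1 (-0.37) and syp-1 (-0.51). Genes of autophagy and stress gave -0.51 for sqst-1, -0.38 for bec-1, -1.13 for mtl-1, -0.96 for nnt-1, -0.40 for akt-2 and -1.67 for hsp-12.3. Detoxification and defence genes gave -1.16 for pgp-5, -0.81 for cyp-37B1, -1.19 for ugt-18, -0.71 for fbxa-105, -1.83 for cnc-11 and -1.70 for cht-1, with -1.73 for B0563.10 and -1.42 for flp-25. The largest negative differences under the same conditions were -3.91 for F09C6.13, -3.43 for F09C6.12, -3.37 for ddn-1, -3.35 for T20D4.7 and -3.11 for B0507.8. Pathogen response genes and pals genes gave -1.77 for C53A5.9, -0.95 for T08E11.1, -1.56 for pals-27, -1.58 for pals-38, -1.89 for pals-33 and -1.44 for pals-39.

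A small nucleolar RNA gene outside the protein-coding set, T10B9.11, was listed at 0 in all 6 N2 libraries and at 1414, 4126 and 988.7 FPKM in lin-52 UV 2, 3 and 4. It was also present in the mock-treated mutant libraries, at 1309, 2369 and 1382 FPKM.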

How the results depend on the processing

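The naming rule gave 333 genes, of which 247 were called after UV and 193 kept the call under every alternative. The text follows a smaller set of 120 genes, of which 117 were called and 110 kept the call under all 25 alternatives. The calls of lin-54, T01C3.11, ZK353.10, comt-2, T20D4.7, pals-14 and irg-1 were lost under at least 1, and none of the 120 genes changed direction. Of all 3637 calls 1999 were kept under every alternative. Scaling to an equal sum left 1257 lower genes, and a filter at 5 FPKM left 224 higher and 154 lower genes of at least 1.5-fold. Leaving out each library in turn gave 2560 to 3923 calls (1143 to 1822 higher, 1417 to 2101 lower), 308 to 409 higher and 167 to 371 lower genes of at least 1.5-fold, and 833 to 2184 differences of the strain effects (360 to 1026 positive, 470 to 1158 negative), with the low total without lin-52 UV 4 and the high total without lin-52 UV 2. The deviations of same-numbered libraries correlated only weakly (r between -0.16 and 0.25 over 13 pairs, 3 of them over 0.1), and 5 of 12 libraries correlated best with their own number. Whether same-numbered libraries share a culture or day is not stated and cannot be told from these values. With the replicate block 2725 genes were called, 2616 of them shared with the 3637, and the strain effects differed in 837 genes (372 positive, 465 negative). The causes were not tested. Without counts, the precision of low FPKM values cannot be stated.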

Other observations

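In a fit of all biotypes, 43 of 430 pseudogenes were higher and 19 lower in irradiated lin-52 larvae, as were 19 and 20 of 1887 noncoding RNA genes, 4 and 4 of 233 small nucleolar RNA genes and 1 and 3 of 82 long intergenic RNA genes. Of all 15944 genes in that fit 1587 were higher and 1832 lower. The share of pseudogenes called higher was thus close to that of all genes, and the other shares lay below it. The abundant noncoding RNA tts-1 stood at 1389, 1499 and 1401 FPKM in N2 UV and 1164, 994.6 and 969.2 in lin-52 UV (-0.46 ± 0.08, limma adjusted p = 0.00353). The mock-treated libraries of both strains lay between 276.2 and 327.1 FPKM. The noncoding RNA Y53F4B.45 stood at 144.7, 154.1 and 147.0 FPKM in N2 UV and 108.4, 90.0 and 87.9 in lin-52 UV. The small nucleolar RNA T25C12.12 was listed at 0 in all 3 lin-52 UV libraries and at 424.0, 114.0 and 75.0 FPKM in N2 UV, and at 82.1 to 386.9 FPKM in the 6 mock-treated libraries. These 3 genes were chosen after their values were seen. The pharyngeal myosin gene myo-1 was listed at 0 in lin-52 UV 2 and 3, which holds down the summed level of the pharynx markers in these libraries, 840.7 to 1165 FPKM against 1069 to 1074 in N2 UV.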
